A study of Homo sapiens with 9 samples.

Results

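The genes described here encode the subunits, assembly chaperones and regulators of the proteasome, taken as the protein-coding genes of the deposited table with a symbol of PSMA to PSMG and a number, other than PSMB8, PSMB9 and PSMB10. This rule uses names and no measured value. It finds 43 of the 27421 genes in the table: 7 of the alpha ring and 7 of the beta ring of the 20S core, 6 ATPases and 11 non-ATPase subunits of the 19S cap, 3 chaperones of the 19S base, 4 activators, 1 inhibitor and 4 chaperones of the 20S core. The rule found no row for PSMA8 or PSMB11, which belong to the testis and the thymus. The series asks whether ZMAT2 acts on liver cancer cells through splicing. The cells were Huh7, an established human hepatoma line, and all 9 libraries were made from poly(A) RNA with a strand-specific protocol. A control group of 3 libraries was compared with 3 libraries of shZMAT2-1 and 3 of shZMAT2-2, names that point to 2 short hairpin RNAs against ZMAT2, a zinc finger protein of the spliceosome. The labels give no sequence of either hairpin, no vector or selection, no time after delivery, and no account of what the control cells carried. Whether the replicates of a group came from separate cultures is not stated either, and the p-values below speak only of the spread among these 9 libraries, which may be technical.

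The proteasome degrades proteins marked with ubiquitin. Its barrel-shaped core holds the proteolytic sites inside the beta rings, and the alpha rings gate the entry. The cap recognises the ubiquitin chain, removes it, and unfolds the substrate with a ring of ATPases that threads it into the core. Because the subunits are used in fixed ratios, their genes are known to be regulated together, in part by the transcription factor NFE2L1, which raises them when proteasome activity is short. Liver cells and hepatoma cells express the constitutive form, and interferon replaces its catalytic subunits with those of the immunoproteasome.

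Where 3 values stand in a row below, they belong to replicates 1, 2 and 3 of the group. The unit is FPKM: fragments counted on a gene, divided by transcript length in kilobases and by library depth. ZMAT2, the targeted gene, measured 37.5, 32.8 and 39.2 FPKM in the control libraries, 15.2, 12.8 and 13.2 in shZMAT2-1 and 22.1, 20.3 and 20.8 in shZMAT2-2, so the groups did not overlap. Its mean was 37.6% of the control in shZMAT2-1 and 57.7% in shZMAT2-2, with an exact two-sided permutation p of 0.0119 for the 6 knockdown against the 3 control libraries, the smallest that 84 assignments allow. By the limma test used below for the proteasome genes, ZMAT2 was called in shZMAT2-1 (adjusted p 0.0283) and for the mean of both arms (adjusted p 0.0144) but not in shZMAT2-2 (adjusted p 0.113), and on TPM it was called in no comparison. Depth recovered from the values was 18430000 to 23740000 fragments per library, so 3 fragments on a 1 kb transcript correspond to 0.126 to 0.163 FPKM. The 13 genes of the mitochondrial genome took a share of fragments that was 7.86%, 43.2% and 8.28% in the control, 8.25%, 16.4% and 7.70% in shZMAT2-1 and 27.0%, 14.5% and 16.6% in shZMAT2-2. Control replicate 2 therefore stands furthest from its group, and shZMAT2-2 replicate 1 and shZMAT2-1 replicate 2 stand apart from theirs to a lesser degree. The median of the 39 tested genes in each arm against the control is given below with and without each library that enters it. Medians of single classes and between the arms are given with all 9 libraries only. All 10 listed hepatocyte and hepatoma markers reached 1 FPKM, with sums of 3433 to 6205 FPKM per library. Of the fibroblast, leukocyte and endothelial markers 2 of 6, 1 of 5 and 1 of 4 did, and their sums did not exceed 4.18, 8.82 and 1.70 FPKM. The leukocyte sum was mostly CD14, which hepatocytes also express, at up to 8.74 FPKM, and PTPRC, CD3E, CD68 and TYROBP stayed under 0.5 FPKM.

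No proteasome gene passed the test in any comparison. Of the 43 genes, 39 had at least 1 FPKM in at least 3 libraries and were tested among 11245 genes with limma on log2(FPKM + 1), called at a Benjamini-Hochberg adjusted p under 0.05. None of the 39 was called in shZMAT2-1 against control, where 0.08% of all genes tested were called, and none in shZMAT2-2 against control, where 0.587% were. None was called for both arms averaged against the control (0.542% of all genes) or for shZMAT2-2 against shZMAT2-1 (0.0% of all genes). The lowest adjusted p of a proteasome gene was 0.805 in shZMAT2-1, 0.8802 in shZMAT2-2, 0.993 for the mean and 0.657 between the arms, and 0 of the 39 had an unadjusted limma p under 0.05 in any of the 4. Over all 11245 genes tested, 648, 787, 779 and 465 had such a p in the same order. In bulk RNA, fewer cells of a kind and less of a transcript per cell cannot be told apart.

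The medians of the estimates, none of which passed, differed between the arms and changed with single libraries. In shZMAT2-1 the estimate was above 0 for 37 of 39 genes with a median log2 fold change of 0.34, against 8196 of 11245 genes and a median of 0.16 for all genes tested. Ribosomal protein genes gave similar figures in that arm, with 77 of 81 cytosolic ones above 0 (median 0.32) and 72 of 75 mitochondrial ones (median 0.33). In shZMAT2-2 it was above 0 for 14 of 39 proteasome genes with a median of -0.14, against 6570 of 11245 and a median of 0.05 for all genes. There 6 of 81 cytosolic ribosomal protein genes were above 0 (median -0.40), and 27 of 75 mitochondrial ones (median -0.04). The arms share their control libraries, so these figures are not independent of each other. Between the arms, shZMAT2-2 minus shZMAT2-1, 6 of 39 estimates were above 0 with a median of -0.43, against 4371 of 11245 and a median of -0.09 for all genes. Cytosolic ribosomal protein genes had 3 of 81 above 0 between the arms (median -0.67), and mitochondrial ones 12 of 75 (median -0.36). Median-of-ratios scaling moved the shZMAT2-1 median of all genes from 0.16 to 0.03 and that of the proteasome genes from 0.34 to 0.17, with 25 of 39 above 0 against 6166 of 11245.

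Several single libraries turned or removed the sign of an arm's median. Without control replicate 2 the median of the proteasome genes in shZMAT2-1 was -0.02, with 15 of 39 above 0, near the 4306 of 11245 and the median of -0.05 for all genes. In shZMAT2-2 it was then -0.57, with 4 of 39 above 0, against 3770 of 11245 and a median of -0.15 for all genes. The shZMAT2-2 median was above 0 without control replicate 1 (0.064) and without control replicate 3 (0.079), with 28 of 39 above 0 in each. These compare with 8680 and 8607 of 11245 genes above 0. Without shZMAT2-2 replicate 1 that median was -0.011, with 18 of 39 above 0, against 7914 of 11245 genes, and without shZMAT2-1 replicate 2 the shZMAT2-1 median was 0.53, with 37 of 39 above 0, against 7725 of 11245. With the mitochondrial level as a covariate the medians were 0.13 in shZMAT2-1 and 0.065 in shZMAT2-2, where 26 of 39 were above 0, against 8368 of 11245 genes. No proteasome gene was called when any 1 library was left out. Without control replicate 2, 0.169% of all genes were called higher and 0.124% lower in shZMAT2-1, and 1.13% and 1.27% in shZMAT2-2.

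**Figure D1:**
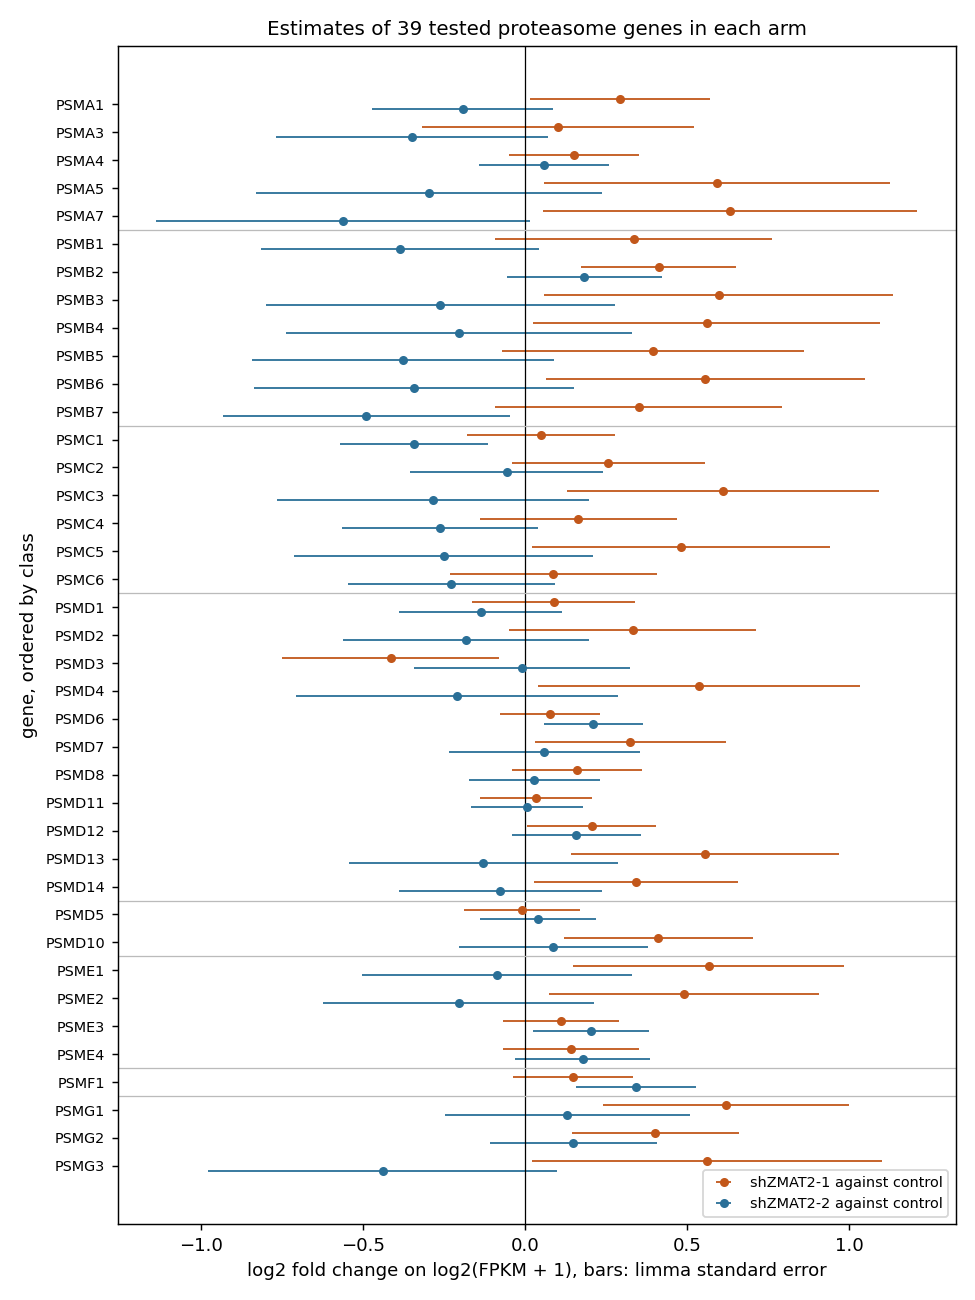
Log2 fold change of each of the 39 tested genes (x axis, on log2(FPKM + 1)) with limma's standard error as a bar, in shZMAT2-1 (orange) and shZMAT2-2 (blue) against the control; genes are ordered by class and grey lines separate the classes. Estimates span -0.41 to 0.63 in shZMAT2-1 and -0.56 to 0.34 in shZMAT2-2, the orange points lie right of 0 for 37 of 39 genes, and none passed the test in either arm.

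The level of the whole set followed particular libraries. The 43 genes together held 0.949%, 0.184% and 0.927% of all FPKM in the control, 1.07%, 0.526% and 1.03% in shZMAT2-1 and 0.330%, 0.558% and 0.570% in shZMAT2-2. This gave 0.687% ± 0.435 for the controls, 0.873% ± 0.301 for shZMAT2-1 and 0.486% ± 0.135 for shZMAT2-2 (means with SD, n = 3 each), so neither arm's mean was further from the control mean than the SD of the controls. The 4 libraries with a mitochondrial share of 7.70% to 8.28% had the 4 highest values, whichever group they belonged to, and control replicate 2, with the highest mitochondrial share, had the lowest.

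Mitochondrial transcripts enter the total of such a share, so the sum was also taken over the FPKM of all other genes, called nuclear here. On that scale the proteasome genes held 1.33%, 0.958% and 1.32% in the control, 1.497%, 1.06% and 1.42% in shZMAT2-1 and 0.968%, 1.04% and 1.12% in shZMAT2-2. The same 4 libraries lay between 1.32% and 1.497%, and the other 5 between 0.958% and 1.12%. Among the 4, both shZMAT2-1 libraries were above both control libraries. Among the 5, control replicate 2 was the lowest and shZMAT2-2 replicate 3 the highest. The part of the mitochondrial share, or of whatever moves with it, in the level of these genes was not tested.

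Gene by gene, control replicate 2 was the lowest of the 9 libraries for 37 of 39 tested proteasome genes (94.9%), against 70.8% of all genes tested. The exceptions were PSMD11, lowest in shZMAT2-2 replicate 2, and PSME3, lowest in control replicate 3. The highest library was shZMAT2-1 replicate 1 for 23 of 39 (59.0%), against 21.6% of all genes. The level in control replicate 2 divided by the mean of control replicates 1 and 3 had a median of 0.421 over the 39 genes and 0.566 over all genes tested. It was 0.341 over 81 cytosolic and 0.414 over 75 mitochondrial ribosomal protein genes, so the low value in that library was shared with the ribosomal protein genes.

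**Figure D2:**
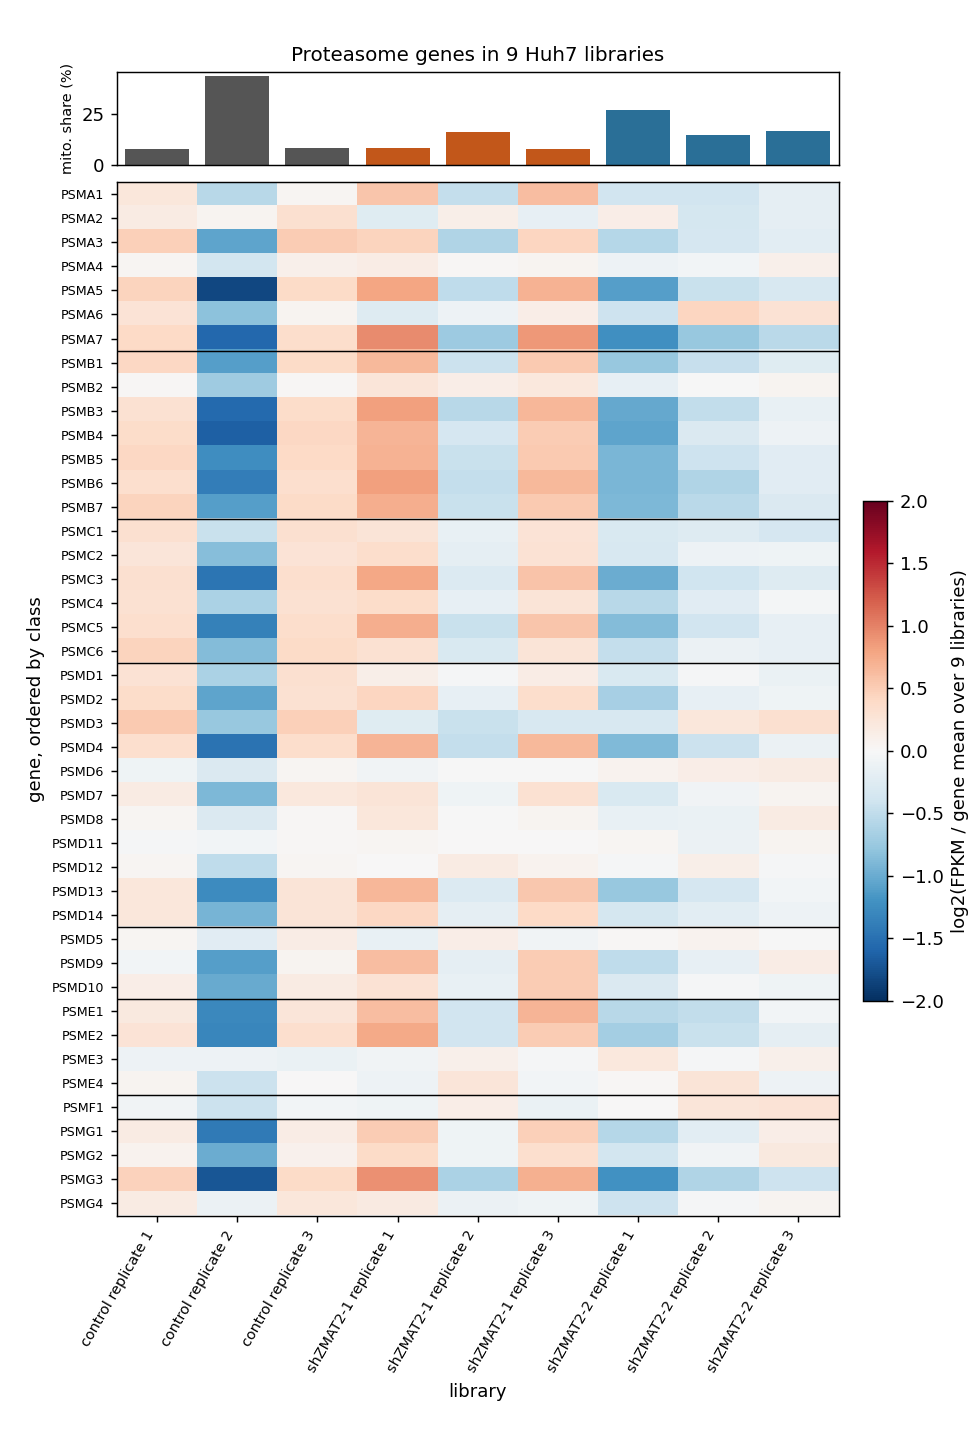
Each row is 1 of the 43 genes and each column 1 library; colour gives log2 of the FPKM over the gene's mean across the 9 libraries, black lines separate the classes, and the bars on top give the mitochondrial share of fragments in percent. Control replicate 2 (mitochondrial share 43.2%) and shZMAT2-2 replicate 1 (27.0%) are blue across most rows, while PSMD11 and PSME3 stay near white in every column.

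Within the alpha ring, which forms the gated entry of the core, PSMA7 had the highest mean level. PSMA7 (ENSG00000101182, chr20:62136733-62143440) measured 217, 55.1 and 208 FPKM in the control libraries, 317, 99.5 and 298 in shZMAT2-1 and 70.3, 97.3 and 113 in shZMAT2-2. Its shZMAT2-1 replicates 1 and 3 were the highest libraries, and every group overlapped the others. The log2 fold change was 0.63 (SE 0.58, limma adjusted p 0.805) in shZMAT2-1 and -0.56 (SE 0.58, limma adjusted p 1.00) in shZMAT2-2. PSMA4 varied less, at 57.8, 43.3 and 59.96 FPKM in the control libraries, 62.3, 56.9 and 58.2 in shZMAT2-1 and 52.1, 54.004 and 60.4 in shZMAT2-2, with its only value under 50 in control replicate 2. PSMA5 had the lowest ratio of control replicate 2 to the other controls, 0.213, and ranged from 4.48 to 27.3 FPKM. All 5 tested alpha genes had estimates above 0 in shZMAT2-1 (median 0.29), and 1 of 5 did in shZMAT2-2 (median -0.30).

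The beta ring holds the active sites, and in 6 of its 7 genes control replicate 2 stood at 0.246 to 0.351 of the mean of the other controls. PSMB5, the chymotrypsin-like subunit and the main target of bortezomib, measured 170.1, 54.2 and 169 FPKM in the control libraries, 207, 94.2 and 184 in shZMAT2-1 and 67.95, 95.9 and 109 in shZMAT2-2. PSMB6, the caspase-like subunit, measured 178, 54.2 and 179 FPKM in the control libraries, 248, 102 and 220.5 in shZMAT2-1 and 75.2, 93.6 and 120.3 in shZMAT2-2. PSMB7, the trypsin-like subunit, measured 163, 56.2 and 157 FPKM in the control libraries, 197, 88.4 and 173 in shZMAT2-1 and 64.1, 82.5 and 97.9 in shZMAT2-2. In all 3 catalytic genes control replicate 2 was the lowest library and shZMAT2-1 replicates 1 and 3 were the highest, and the control range enclosed every shZMAT2-2 value.

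The means for PSMB5 were 131 ± 66.8 FPKM for the controls, 162 ± 59.5 for shZMAT2-1 and 90.9 ± 20.98 for shZMAT2-2 (each with its SD, n = 3), and its log2 fold change was 0.39 (SE 0.47) in shZMAT2-1 and -0.38 (SE 0.47) in shZMAT2-2. For PSMB6 the log2 fold changes were 0.56 (SE 0.49) and -0.34 (SE 0.49), and for PSMB7 they were 0.35 (SE 0.44) and -0.49 (SE 0.44). The limma adjusted p of these 3 genes was 0.805 to 0.807 in shZMAT2-1 and 1.00 in shZMAT2-2. Together they held 0.248%, 0.142% and 0.243% of nuclear FPKM in the control, 0.295%, 0.163% and 0.266% in shZMAT2-1 and 0.138%, 0.154% and 0.177% in shZMAT2-2.

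Among the structural beta subunits PSMB4 had the highest mean and PSMB1 the lowest of the ring. PSMB4 measured 211, 52.8 and 217 FPKM in the control libraries, 261, 129.5 and 233 in shZMAT2-1 and 78.7, 133 and 152 in shZMAT2-2, with its lowest value in control replicate 2 and its highest in shZMAT2-1 replicate 1. PSMB1 measured 115, 40.04 and 113 FPKM in the control libraries, 134, 63.7 and 123 in shZMAT2-1 and 50.8, 62.9 and 72.6 in shZMAT2-2, in the same order of libraries at the extremes. PSMB2, the gene outside the range of ratios above at 0.604, measured 93.5, 56.3 and 93.1 FPKM in the control libraries, 108, 101 and 107 in shZMAT2-1 and 82.5, 91.1 and 96.1 in shZMAT2-2. All 3 shZMAT2-1 libraries lay above all controls and above all shZMAT2-2 libraries. Its log2 fold change was 0.41 (SE 0.24, limma adjusted p 0.805) in shZMAT2-1 and 0.18 (SE 0.24, limma adjusted p 1.00) in shZMAT2-2.

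**Figure D3:**
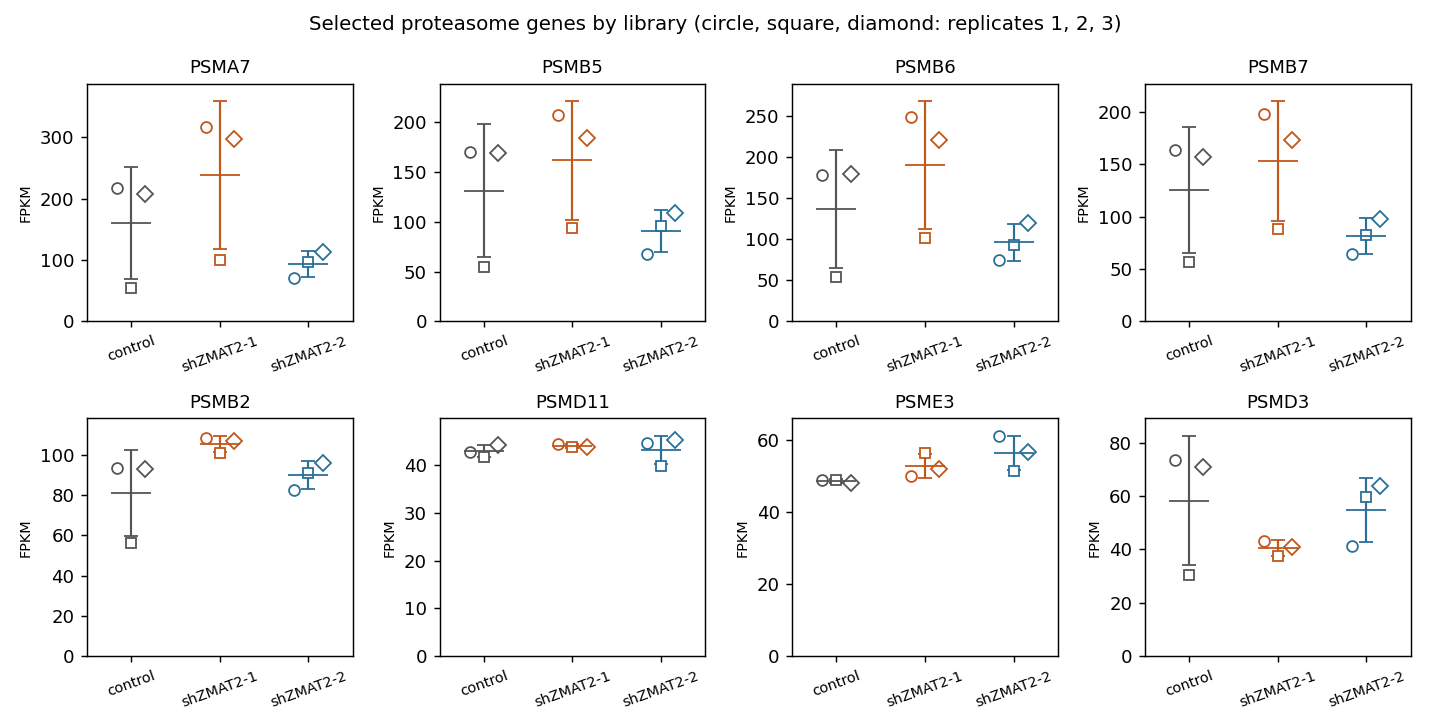
FPKM of 8 proteasome genes in each library (circle, square and diamond for replicates 1, 2 and 3), with the group mean as a horizontal line and the SD of 3 libraries as the bar; every axis starts at 0. For PSMA7, PSMB5, PSMB6 and PSMB7 the square lies far below the circle and diamond in the control and in shZMAT2-1, whereas for PSMD11 all 9 libraries lie between 39.9 and 45.2 FPKM.

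The ATPases form the ring that unfolds substrates, and their 6 genes spanned means of 13.5 FPKM for PSMC1 to 128 for PSMC4. PSMC4 measured 158, 82.6 and 158 FPKM in the control libraries, 165, 115 and 153 in shZMAT2-1 and 87.1, 109 and 125 in shZMAT2-2. PSMC1 measured 16.97, 9.97 and 16.97 FPKM in the control libraries, 16.2, 12.1 and 16.4 in shZMAT2-1 and 10.97, 11.4 and 10.8 in shZMAT2-2, and every shZMAT2-2 value was under every shZMAT2-1 value but inside the control range. All 6 estimates were above 0 in shZMAT2-1 (median 0.21) and all 6 were below 0 in shZMAT2-2 (median -0.26), and none was called. These signs rest on all 9 libraries. Over 24 alternatives PSMC6 ran from -0.30, without control replicate 2, to 0.31 in shZMAT2-1. In shZMAT2-2 it ran from -0.62 to -0.016. As shares of nuclear FPKM, the ATPases held 0.178% ± 0.0292 across the controls, 0.1898% ± 0.0282 across shZMAT2-1 and 0.148% ± 0.0127 across shZMAT2-2 (means with SD, n = 3 each).

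The non-ATPase genes of the cap varied most in kind. PSMD2, a scaffold that docks ubiquitin receptors, had the highest mean and measured 142, 52.6 and 136 FPKM in the control libraries, 148, 97.9 and 140.3 in shZMAT2-1 and 68.8, 97.8 and 103 in shZMAT2-2. PSMD4, itself a ubiquitin receptor, ranged from 27.8 to 124 FPKM, and PSMD14, the enzyme that removes the ubiquitin chain, from 18.1 to 45.6, both with the minimum in control replicate 2. PSMD11, a lid subunit, was nearly level at 42.8, 41.8 and 44.4 FPKM in the control libraries, 44.5, 43.8 and 43.9 in shZMAT2-1 and 44.6, 39.9 and 45.2 in shZMAT2-2. Its highest library was 1.13 times its lowest, the smallest ratio among the 39, against 6.14 for PSMG3, the largest. The log2 fold change of PSMD11 was 0.03 (SE 0.17) in shZMAT2-1 and 0.01 (SE 0.17) in shZMAT2-2, and its sign in each arm changed with the scaling. PSMD6, another lid subunit and the lowest gene of the class, measured 6.65, 5.78 and 7.24 FPKM in the control libraries, 6.76, 7.04 and 7.06 in shZMAT2-1 and 7.47, 7.74 and 7.96 in shZMAT2-2, with each shZMAT2-2 value above each value of the other groups.

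PSMD3, a lid scaffold subunit, was 1 of 2 tested proteasome genes with an estimate below 0 in shZMAT2-1; it is singled out here after its values were seen. PSMD3 (ENSG00000108344, chr17:39980807-39997959) measured 73.5, 30.4 and 71.04 FPKM in the control libraries, 43.2, 37.5 and 40.8 in shZMAT2-1 and 41.2, 59.7 and 63.7 in shZMAT2-2. The 3 shZMAT2-1 libraries lay together, below control replicates 1 and 3 and above control replicate 2. The log2 fold change was -0.41 (SE 0.33, limma adjusted p 0.805) in shZMAT2-1 and -0.01 (SE 0.33, limma adjusted p 1.00) in shZMAT2-2.

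Control replicate 2 was low in nearly all proteasome genes, so PSMD3 was also set against the median of the 39 genes in the same library. Values were taken here as log2(FPKM), without a pseudocount. The distance of PSMD3 from that median was 0.60, 0.63 and 0.57 in the control, -0.12, 0.03 and -0.20 in shZMAT2-1 and 0.58, 0.69 and 0.89 in shZMAT2-2. All 3 shZMAT2-1 values were below all 6 others. On this scale 2 of the 39, PSMD3 and PSMC6, lay wholly below the controls in shZMAT2-1 (4.14% of all genes tested) and 1, PSMG1, wholly above (4.07%). The shares of all genes beside these counts were taken on log2(FPKM + 1), a different scale from the counts of the 39. In shZMAT2-2, 3 of the 39, PSMD10, PSMG1 and PSMG2, lay wholly above the controls (7.56% of all genes) and 2, PSMB7 and PSMC6, wholly below (3.02%). With both arms together PSMG1 lay wholly above the controls (2.64%) and PSMC6 wholly below (1.29%). Between the arms, 3 of the 39, PSMD3, PSMD6 and PSMF1, were wholly higher in shZMAT2-2 than in shZMAT2-1, where 27.2% of all genes were, and 0 wholly lower (1.16%). Subtracting the proteasome genes' median holds these genes near 0 and shifts all others. In the limma fit on values centred so, 9006 of 11245 genes were above 0 between the arms (median 0.30), against 17 of 39 (median -0.04). The shares of all genes on this scale are therefore no like background for the counts of the 39. For PSMD3 the 3 group means were 0.60 ± 0.03 in the control, -0.10 ± 0.11 in shZMAT2-1 and 0.72 ± 0.16 in shZMAT2-2 (with SD, n = 3 each). Centred in this way but on log2(FPKM + 1), a choice made after seeing the data, the log2 fold change of PSMD3 in shZMAT2-1 was -0.68 (limma adjusted p 0.196), which did not pass. With the mitochondrial level as a covariate it was -0.64 (SE 0.12, limma adjusted p 0.0216) and passed, in a fit that called 1.02% of all genes lower and 2.7% higher in shZMAT2-1. Without control replicate 2 it was -0.82 (limma adjusted p 0.166). Over 24 alternatives the adjusted p of PSMD3 in shZMAT2-1 ran from 0.0216 to 0.999, the estimate was below 0 in each, and the covariate gave the only call.

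The difference between the arms for PSMD3 was 0.41 (SE 0.33, limma adjusted p 0.659) for shZMAT2-2 minus shZMAT2-1. It was 0.80 with the covariate (limma adjusted p 0.0529) and did not pass in any of the 24 alternatives.

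Among the chaperones that assemble the base of the cap, PSMD5 was nearly level at 21.999, 18.4 and 23.8 FPKM in the control libraries, 19.4, 23.7 and 20.6 in shZMAT2-1 and 21.8, 22.7 and 21.3 in shZMAT2-2. PSMD10, also known as the oncoprotein gankyrin, measured 13.05, 5.95 and 13.4 FPKM in the control libraries, 14.6, 10.8 and 17.03 in shZMAT2-1 and 9.81, 11.7 and 11.2 in shZMAT2-2, lowest in control replicate 2. Of the 2 tested genes of this class 1 had an estimate above 0 in shZMAT2-1 and both did in shZMAT2-2.

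The activators open the core without the ATPase cap. PSME1 and PSME2 form the interferon-inducible cytoplasmic activator. PSME1 measured 40.9, 14.6 and 42.5 FPKM in the control libraries, 54.9, 27.5 and 57.1 in shZMAT2-1 and 24.4, 25.4 and 34.4 in shZMAT2-2. PSME2 measured 23.7, 7.93 and 24.8 FPKM in the control libraries, 33.1, 15.1 and 27.8 in shZMAT2-1 and 12.2, 14.4 and 17.2 in shZMAT2-2. Both genes followed the catalytic subunits, with the minimum in control replicate 2 and the maximum in shZMAT2-1. The log2 fold changes of PSME1 were 0.57 (SE 0.42) and -0.09 (SE 0.42) in shZMAT2-1 and shZMAT2-2, and those of PSME2 were 0.49 (SE 0.42) and -0.20 (SE 0.42); none passed.

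PSME3, the nuclear activator, did not follow them. It measured 48.9, 48.9 and 47.99 FPKM in the control libraries, 49.9, 56.2 and 51.9 in shZMAT2-1 and 60.9, 51.4 and 56.5 in shZMAT2-2. All 6 knockdown libraries were above all 3 controls, and PSME3 was the only 1 of the 39 tested proteasome genes of which that held. It held for 4.69% of all genes tested, so such separation was not particular to PSME3. The means were 48.6 ± 0.524 FPKM for the controls, 52.7 ± 3.26 for shZMAT2-1 and 56.3 ± 4.74 for shZMAT2-2 (each with its SD, n = 3), and limma did not call it in any of the 4 comparisons. PSME4, the other nuclear activator, ranged from 23.2 to 37.4 FPKM with no separation of the groups.

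PSMF1, the inhibitor that binds the core, measured 19.2, 15.01 and 19.4 FPKM in the control libraries, 19.1, 22.1 and 18.3 in shZMAT2-1 and 20.2, 23.9 and 24.4 in shZMAT2-2. Each shZMAT2-2 value was above each control value, while shZMAT2-1 overlapped both groups. The chaperones of the core guide the alpha ring together. PSMG1 was the most abundant of them and measured 20.3, 6.83 and 20.2 FPKM in the control libraries, 25.8, 17.1 and 25.4 in shZMAT2-1 and 12.3, 15.7 and 19.9 in shZMAT2-2, with a log2 fold change of 0.62 (SE 0.38, limma adjusted p 0.805) in shZMAT2-1 and 0.13 (SE 0.38, limma adjusted p 1.00) in shZMAT2-2. The groups of PSMG1 overlapped, and control replicate 2 was its lowest library. PSMG3 ranged from 4.88 to 29.9 FPKM. PSMG2 measured 5.70, 2.72 and 5.79 FPKM in the control libraries, 7.12, 5.09 and 6.89 in shZMAT2-1 and 4.20, 5.17 and 6.20 in shZMAT2-2. Of the 3 tested genes 3 had estimates above 0 in shZMAT2-1 and 2 in shZMAT2-2.

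Separation of the groups was no more common among proteasome genes than among all genes. Control replicate 2 was the lowest library for 37 of 39 of them (94.9%, against 70.8% of all genes). For those genes no arm could lie wholly below the controls, so the counts of 0 below were largely set by that library. In shZMAT2-1, 2 of 39 (PSMB2 and PSME3) had every library above every control, where 9.1% of all genes tested did, and 0 had every library below (1.83% of all genes). In shZMAT2-2, 3 of 39 (PSMD6, PSME3 and PSMF1) were above, against 11.9%, and 0 below, against 1.52%. With both arms together 1 of 39 was above (4.69% of all genes) and 0 below (0.685%). Of the arms, shZMAT2-2 was wholly above shZMAT2-1 for 1 gene, PSMD6 (5.59% of all genes), and wholly below for 3, PSMB2, PSMC1 and PSMD1 (9.28%).

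The depth of the drop in control replicate 2 differed by class and by transcript length. The median ratio of control replicate 2 to the mean of the other controls was 0.341 in the alpha ring, 0.319 in the beta ring, 0.439 in the ATPases, 0.473 in the non-ATPase subunits and 0.537 in the activators. It was 0.337 in the 3 tested chaperones of the core and 0.626 in the 2 of the cap base, and the inhibitor PSMF1 stood at 0.778. Over the 39 genes, log2 of the ratio and log2 of the length of the principal GENCODE 29 transcript had a Pearson r of 0.50, and ratio and length a Spearman rho of 0.52. The points are genes measured in the same 3 libraries and are not independent, and FPKM divides by length. Over 10249 protein-coding genes tested the same r was 0.30. The 25 genes at a ratio under 0.5 had a median length of 1546 bases, and the other 14 had 3384.5 bases. PSME3, at 998 bases and a ratio of 1.01, and PSMA5, at 3729 bases and 0.213, lay outside that pattern. With the percentage of G and C in the transcript r was -0.31 over the 39 genes and -0.33 over the protein-coding genes. The part of length, base composition or RNA quality in the drop was not tested.

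**Figure D4:**
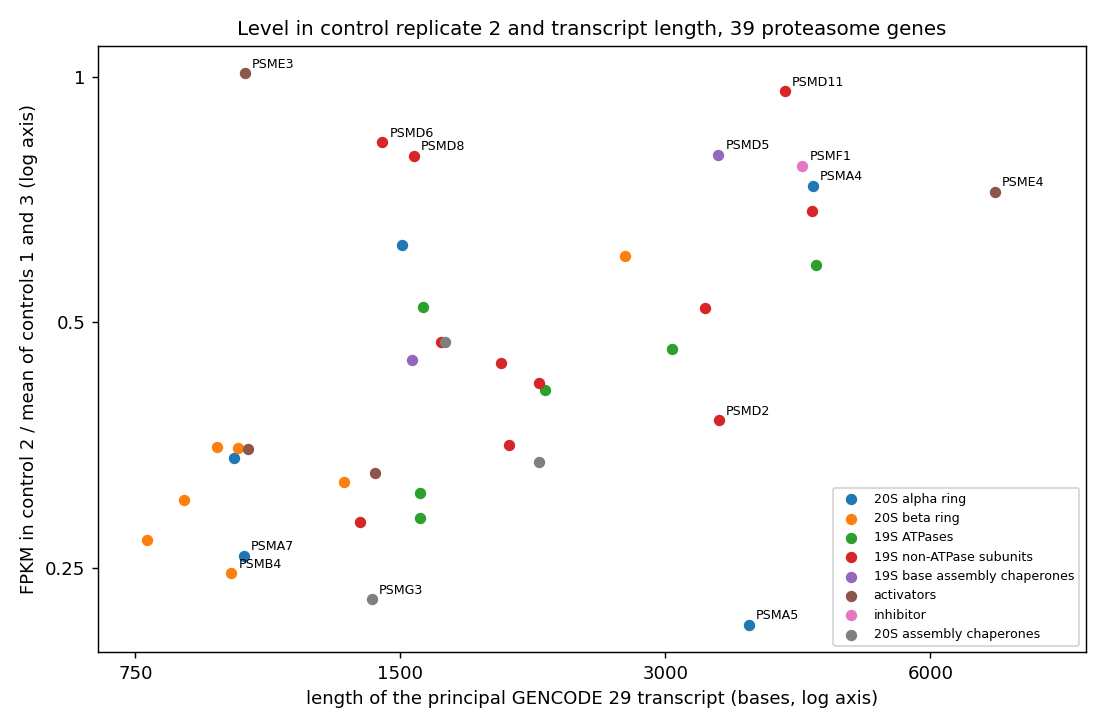
Ratio of the FPKM in control replicate 2 to the mean of control replicates 1 and 3 (y, log axis) against the length of the principal transcript in bases (x, log axis) for the 39 tested genes, coloured by class. Beta ring genes lie mostly at lower left with a median ratio of 0.319, PSMD11 and PSMF1 at upper right, and PSME3 (ratio 1.01) and PSMA5 (0.213) lie away from the rest.

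The promoters were read for the letters known to be bound by regulators of these genes. Any part of such regulators in the variation across the libraries was not tested. NFE2L1 and its relative NFE2L2 bind, with small MAF proteins, an element with the core TGACNNNGC, and NF-Y binds CCAAT. Of the 43 genes, 37 have a RefSeq promoter window (GRCh38.p14), of which the 250 bases before the RefSeq start were searched on both strands. That start can differ from the gene's start in the deposited table: the PSMA4 site below lies inside PSMA4 as that table places it. TGACNNNGC occurred in 12 of these 37 genes (32.4%), against 13.2% of 27305 genes, and CCAAT in 17 of 37 (45.9%), against 37.0%. A gene counted if any of its windows matched, and the number of windows per gene was not matched between the lists. The 27305 genes are all those with a window and were not matched to the 37 for level or for coding a protein. A match of letters is a description and does not show binding. The sites below are 6 examples from the 12 genes, chosen to include PSMD3, both rings of the core, a core chaperone and a site on the opposite strand, and are written 5′ to 3′ on the gene's strand with 10 flanking bases. Capitals mark the match, which in PSME4 lies on the opposite strand and reads as its reverse complement.
PSMA4, chr15:78540650-78540678, plus strand: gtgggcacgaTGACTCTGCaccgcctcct
PSMB3, chr17:38752627-38752655, plus strand: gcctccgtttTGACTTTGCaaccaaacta
PSMD3, chr17:39980760-39980788, plus strand: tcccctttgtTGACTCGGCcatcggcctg
PSME1, chr14:24136098-24136126, plus strand: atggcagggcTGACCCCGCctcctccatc
PSME4, chr2:53971009-53971037, minus strand: cccggcggctGCAGCGTCAccagcagagc
PSMG1, chr21:39183616-39183644, minus strand: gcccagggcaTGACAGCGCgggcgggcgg
Genes with the motif did not share 1 pattern of levels: PSMB3 ranged from 51.3 to 267 FPKM over the 9 libraries, and PSMA4 from 43.3 to 62.3. A window without a match lacks these letters and shows no more than that.

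The 4 genes under the filter, PSMA2, PSMA6, PSMD9 and PSMG4, were at levels far under those of the subunits they assemble with. PSMA2, an alpha ring subunit, measured 0.316, 0.292 and 0.354 FPKM in the control libraries, 0.240, 0.307 and 0.251 in shZMAT2-1 and 0.308, 0.221 and 0.2496 in shZMAT2-2. PSMA6, another, measured 0.814, 0.383 and 0.703 FPKM in the control libraries, 0.567, 0.631 and 0.738 in shZMAT2-1 and 0.509, 0.906 and 0.824 in shZMAT2-2. All 9 libraries of both were under 1 FPKM, and the groups overlapped. PSMD9, a chaperone of the cap base, measured 0.782, 0.379 and 0.841 FPKM in the control libraries, 1.24, 0.717 and 1.16 in shZMAT2-1 and 0.569, 0.725 and 0.896 in shZMAT2-2. PSMG4, a chaperone of the core, measured 0.664, 0.546 and 0.694 FPKM in the control libraries, 0.672, 0.545 and 0.555 in shZMAT2-1 and 0.442, 0.578 and 0.615 in shZMAT2-2. The means over the 9 libraries were 0.812 FPKM for PSMD9 and 0.590 for PSMG4, whereas the tested alpha genes had means of 7.37 (PSMA1) to 164 (PSMA7). In the assembled core each alpha subunit is present in the same number, so these low values were compared with the annotation.

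In GENCODE 29, exons of another protein-coding gene on the same strand covered 80.95% of the principal transcript of PSMA6, 53.2% of PSMA1, 52.5% of PSMA2 and 43.8% of PSMD9. For the other 39 genes, PSMG4 included, the cover was 0. The genes that covered them stand in the table by identifier alone and were listed at no more than 0.0141 FPKM (ENSG00000258790, over PSMA6), 0.0372 (ENSG00000256206, over PSMA1), 0.0375 (ENSG00000256646, over PSMA2) and 0.0593 (ENSG00000256950, over PSMD9, where CFAP251 also overlaps in GENCODE 29 and did not exceed 0.334). The cover was taken for all protein-coding genes of the table with a principal transcript in GENCODE 29. Of those with more than 50% cover, 79.3% of 523 had a mean under 1 FPKM, against 38.8% of 15232 genes with none. With some cover but no more than 50%, where PSMD9 falls, it was 40.1% of 946, near the share of genes with none. The sources used here do not give the rule by which a fragment inside 2 genes was counted. The levels of PSMA1, PSMA2, PSMA6 and PSMD9 are therefore uncertain, and the part of the overlap in them was not tested.

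**Figure D5:**
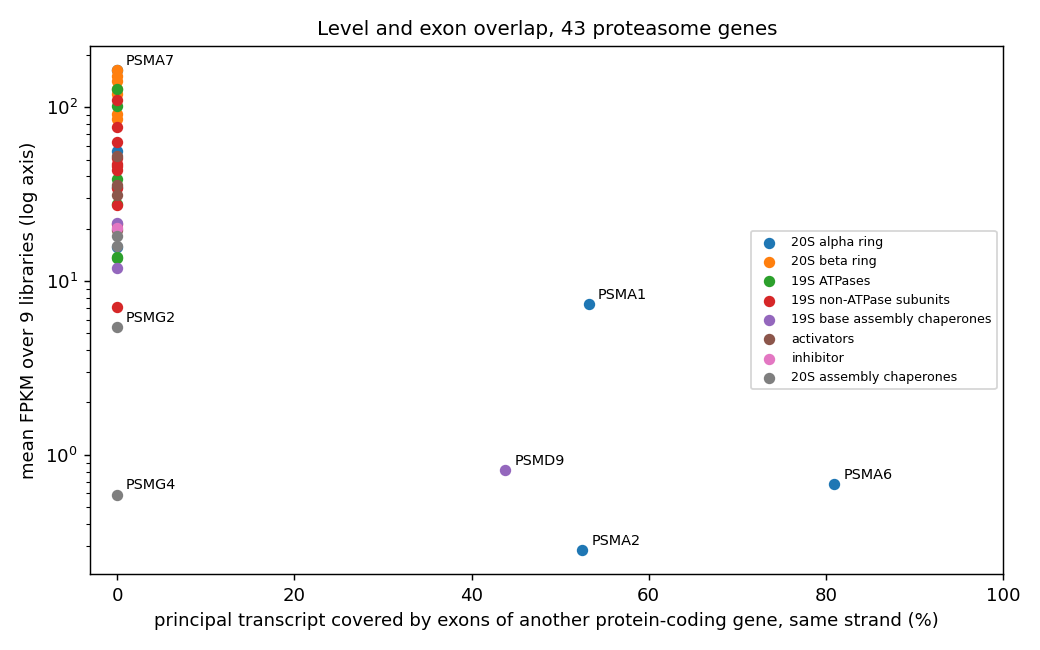
Mean FPKM over the 9 libraries (y, log axis) against the percentage of the principal transcript covered by exons of another protein-coding gene on the same strand (x) for all 43 genes, coloured by class. Of the 4 genes with any cover, PSMA2, PSMA6 and PSMD9 lie under 1 FPKM and PSMA1 at 7.37; PSMG4 lies under 1 FPKM without cover.

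The neighbours of the proteasome in its pathway gave no call either. Of 45 other listed genes, 43 were tested, and 0 were called in any of the 4 comparisons with limma. At an unadjusted p under 0.05 there were 0 of 43 in shZMAT2-1, 2 in shZMAT2-2, 0 for the mean and 3 between the arms, where 648, 787, 779 and 465 of all 11245 genes had such a p. Their median log2 fold change was 0.19 in shZMAT2-1 and 0.05 in shZMAT2-2. NFE2L1, the regulator of proteasome genes, measured 35.9, 21.9 and 35.9 FPKM in the control libraries, 39.4, 44.01 and 40.02 in shZMAT2-1 and 35.7, 45.1 and 43.5 in shZMAT2-2. All 3 shZMAT2-1 libraries were above all 3 controls for NFE2L1, as in 9.1% of all genes tested, and shZMAT2-2 replicate 1 lay within the control range. The log2 fold change of NFE2L1 was 0.42 in both shZMAT2-1 (limma adjusted p 0.805) and shZMAT2-2 (limma adjusted p 0.883). POMP, the maturation factor of the core, measured 20.3, 6.02 and 20.1 FPKM in the control libraries, 27.6, 9.59 and 25.4 in shZMAT2-1 and 7.92, 9.33 and 11.6 in shZMAT2-2. ADRM1, a ubiquitin receptor of the cap, measured 131, 70.3 and 129.6 FPKM in the control libraries, 157, 112 and 141 in shZMAT2-1 and 95.3, 116 and 145 in shZMAT2-2. POMP followed the beta genes, with its minimum in control replicate 2 and its 2 highest values in shZMAT2-1 replicates 1 and 3, and the groups overlapped for POMP and ADRM1.

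The catalytic subunits of the immunoproteasome were low. PSMB10 measured 1.60, 0.484 and 1.76 FPKM in the control libraries, 3.57, 1.10 and 3.13 in shZMAT2-1 and 0.820, 1.45 and 1.202 in shZMAT2-2. PSMB8 did not exceed 0.483 FPKM in any library and PSMB9 did not exceed 0.276, with a value listed at 0 in control replicate 2. Both of these had their highest value in shZMAT2-1 replicate 1, and both are under the level at which genes were tested.

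Proteasome genes were called in 2 of the alternatives, the mitochondrial covariate and the fit without both second replicates, while scaling to nuclear FPKM called 0 in each of the 4 comparisons. With the mitochondrial covariate, the estimate of PSMB2 for the mean of both arms was 0.28 and passed (limma adjusted p 0.04698), in a fit that called 7.94% of all genes higher; over 24 alternatives its adjusted p for the mean ran from 0.04698 to 1.00. Leaving out the second replicates of the control and of shZMAT2-1 together, 24 of 39 genes were called lower in shZMAT2-2 than in the control, where 23.5% of all genes were, and 27 of 39 were called lower in shZMAT2-2 than in shZMAT2-1, where 29.1% were. That fit sets control libraries with mitochondrial shares of 7.86% and 8.28% against shZMAT2-2 libraries with 14.5% to 27.0%, so the hairpin and the mitochondrial share cannot be told apart in it. The genes called lower include PSMA7, PSMB5, PSMB6 and PSMB7 in both comparisons, and PSMB2, PSMD3, PSMD11 and PSME3 in neither. In the same fit shZMAT2-1, whose remaining libraries match the remaining controls in mitochondrial share, had 0 of 39 called (0.667% of all genes were called higher and 0.578% lower), 29 of 39 estimates above 0 and a median of 0.17, against 5441 of 11245 and a median of -0.01 for all genes.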

How the data were processed

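The deposited table holds FPKM, which the authors computed per gene for 9 samples, and every sample column was used. The submitters' processing notes name HISAT, featureCounts and DESeq2 and give no versions. The genome build was not given in the sources used here; gene coordinates are those of the table, and all 43 genes overlap their position in GENCODE 29. Poly(A) RNA was made into libraries that keep strand, per the labels' protocols.

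The test covered the 11245 genes that reached 1 FPKM in 3 or more libraries. A limma model (version 3.58.1, R 4.3.3) with trend was fitted to log2(FPKM + 1) over all 9 libraries with 1 mean per group. Fold changes refer to log2(FPKM + 1) and so understate those of low genes. The threshold was a Benjamini-Hochberg adjusted p of 0.05, two-sided, over all genes tested. Since FPKM are not counts, no count test was run. Depth came from single-exon genes, where 99.9% to 100% of values lay within 0.1 of a whole number of fragments. No replicate columns were identical, and the closest pair had a chi-square per degree of freedom of 4.44.

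Genes, classes and lists were chosen with earlier results of these data known. By the rule for named genes, values in every library are given for any gene called, and otherwise for the gene of each class with the smallest p for the mean of both arms and those with the highest and lowest mean level; the catalytic subunits, PSME1 and PSME2 are always described. Genes described beyond it, such as PSMD3 and PSMD11, were picked after their values were seen. Overlaps and lengths came from GENCODE 29 and promoters from RefSeq GRCh38.p14. The alternatives were another pseudocount of 0.1, other filters and scalings, a replicate block, a mitochondrial covariate (log2 summed FPKM of the 13 mitochondrially encoded genes), protein-coding genes alone, no trend, a limit on the fold, and left-out libraries. Other steps used Python 3.11.15 with numpy 2.4.6, scipy 1.17.1, pandas 2.3.3 and, for plots, matplotlib 3.10.9.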

Additional observations from a re-analysis of the deposited data

How the results depend on the processing

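Of 60 recomputed counts of proteasome genes called, 56 stayed at 0, and so did all 36 with 1 library left out. The mitochondrial covariate gave 1 in shZMAT2-1 (PSMD3) and 1 for the mean of both arms (PSMB2), and leaving out both second replicates gave 24 in shZMAT2-2 and 27 between the arms. With the replicate number as a block 0 were called in each of the 4 comparisons. To see whether the numbers pair the libraries, each gene's deviation from its group mean, on log2(FPKM + 1), was correlated between libraries of different groups. These correlations of deviations, not of the levels themselves, ran from -0.76 to 0.78 over 9 same-numbered pairs. Only 2 of 9 libraries were closest to their own number in both other groups, so the numbers were not taken to pair the libraries. As a share of nuclear FPKM the summed level was 1.204% in the control, 1.33% in shZMAT2-1 and 1.04% in shZMAT2-2. Some signs changed. For PSMD11 the log2 fold change in shZMAT2-1 was -0.13 with median-of-ratios scaling, -0.22 with quantile normalization, -0.21 with nuclear scaling and -0.23 centred on the proteasome genes (chosen after seeing the data); in shZMAT2-2 it was -0.063, -0.031 and, without both second replicates, -0.013. In shZMAT2-2 without both second replicates PSMB2 was at -0.056 and PSMG1 at -0.35. In shZMAT2-2, PSMD3 was at 0.0020 with nuclear scaling, 0.16 with the covariate and 0.12 centred; PSME1 was at 0.14 and 0.039 with the last pair, and PSME2 at 0.024 with the covariate. Leaving out 1 library at a time gave, in shZMAT2-1, -0.0096 to 1.17 for PSMA7, -0.15 to 0.74 for PSMB5, -0.0104 to 0.96 for PSMB6, -0.15 to 0.70 for PSMB7 and -0.0087 to 0.81 for PSME2. In shZMAT2-2 it gave -0.056 to 0.30 for PSMB2, -0.42 to 0.21 for PSMD3, -0.025 to 0.062 for PSMD11, -0.57 to 0.17 for PSME1, -0.70 to 0.062 for PSME2 and -0.35 to 0.37 for PSMG1. Over all genes tested, the calls for the mean of both arms, 51 higher and 10 lower, became 1 and 0 on TPM, 147 and 66 with median-of-ratios scaling and 893 and 203 with the covariate. The cause of these changes was not tested. With 3 libraries per group and 1 control far from the others, the standard errors of the tested proteasome genes limit what could be detected.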
